A study of Mus musculus with 22 samples.

Results

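Glucocorticoid response genes are genes whose RNA rises or falls when the stress hormone corticosterone binds its receptor. A fixed list of 10 genes under this heading was followed among the 31053 genes of the matrices. The 10 were Fkbp5, Tsc22d3, Zbtb16, Sgk1, Sgk3, Dusp1, Cebpd, Pdk4, Txnip and Ddit4. They were chosen by name, and whether each responds to the hormone in these cells was not tested. Each was measured in CPM, its UMIs (captured transcripts) scaled to a common library size, in each library and in each class of cells. The study asked whether loss of Nalcn, the sodium leak channel gene, releases cells from solid organs into the blood. Every mouse carried Prom1-CreERT2, a tamoxifen-inducible recombinase driven by the Prom1 promoter, together with Rosa26ZSG, which tags the recombined cells and their offspring with ZsGreen, and no mouse had a tumour. Nalcn was intact (wt), heterozygous (het) or null only where the recombinase had acted, so the unsorted organ libraries also held cells with an unrecombined gene. Cells sorted from blood by their ZsGreen tag, called ntCZC, made up 10 libraries (2 wt, 4 het and 4 null; mice of 551 to 649 days, 4 female and 6 male). Pooled lung, liver, stomach, kidney and reproductive tract (epididymis or uterus), called tissue, made up 9 libraries (5 wt, 2 het and 2 null; 551 to 654 days, 3 female and 6 male). Another library held unsorted peripheral blood mononuclear cells (PBMC) of a wt male of 120 days. No label or method used here names a treatment with glucocorticoid.

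Corticosterone from the adrenal cortex enters cells and binds the glucocorticoid receptor, encoded by Nr3c1, which is held ready by Hsp90 and its co-chaperones. The loaded receptor moves to the nucleus, binds DNA as a dimer at a palindrome of hexamers spaced by 3 bases, and raises genes that restrain inflammation, adjust fuel use and dampen the hormone signal itself. Corticosterone levels follow the time of day and handling stress, and several of the same genes also answer to other signals, such as the immediate-early response to tissue dissociation (Dusp1), glucose (Txnip), low oxygen (Ddit4) and fasting (Pdk4).

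The genes lie on 8 chromosomes (GRCm38, GENCODE vM21, strand in brackets), with Fkbp5 at chr17:28399094-28517527 (minus), Tsc22d3 at chrX:140539528-140600659 (minus), Zbtb16 at chr9:48654297-48836222 (minus), Sgk1 at chr10:21882184-21999903 (plus), Sgk3 at chr1:9798107-9900845 (plus). Further, Dusp1 at chr17:26505590-26562128 (minus), Cebpd at chr16:15887286-15891031 (plus), Pdk4 at chr6:5483351-5496309 (minus), Txnip at chr3:96557957-96561883 (plus) and Ddit4 at chr10:59949669-59951834 (minus).

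RefSeq promoter windows (GRCm38.p6, 250 bases before to 50 after an annotated start) were found for 7 of the 10 genes, 14 starts in all. They were searched for ACANNNTGT, the core of the receptor's palindrome, which reads the same on both strands. The core stood in 3 of the 14 windows and in 2 of the 7 genes, Sgk1 and Txnip, against 2249 of 32851 windows (6.85%) and 2135 of 27025 genes (7.90%) in the whole table. The 3 windows with a match are shown because they are where the sequence read-out of the receptor and the RNA measurements can be set side by side. Each is written 5′ to 3′ on the gene's strand, which is the plus strand in all 3, and the capitals mark the matched core.
Sgk1, chr10:21993640-21993939, core 186 bases before the start: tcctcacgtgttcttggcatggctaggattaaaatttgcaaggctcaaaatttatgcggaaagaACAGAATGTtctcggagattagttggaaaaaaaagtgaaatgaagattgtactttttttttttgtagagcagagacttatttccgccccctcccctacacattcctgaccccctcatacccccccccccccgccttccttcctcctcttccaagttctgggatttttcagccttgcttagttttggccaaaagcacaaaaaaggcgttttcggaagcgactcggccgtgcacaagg
Sgk1, chr10:21978422-21978721, core 127 bases before the start: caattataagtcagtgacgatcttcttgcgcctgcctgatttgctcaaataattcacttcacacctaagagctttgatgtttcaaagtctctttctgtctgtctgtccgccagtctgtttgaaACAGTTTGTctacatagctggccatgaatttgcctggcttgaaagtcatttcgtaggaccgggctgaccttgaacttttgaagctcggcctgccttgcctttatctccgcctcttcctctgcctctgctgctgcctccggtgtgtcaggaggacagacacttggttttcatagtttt
Txnip, chr3:96557707-96558006, core 170 bases before the start: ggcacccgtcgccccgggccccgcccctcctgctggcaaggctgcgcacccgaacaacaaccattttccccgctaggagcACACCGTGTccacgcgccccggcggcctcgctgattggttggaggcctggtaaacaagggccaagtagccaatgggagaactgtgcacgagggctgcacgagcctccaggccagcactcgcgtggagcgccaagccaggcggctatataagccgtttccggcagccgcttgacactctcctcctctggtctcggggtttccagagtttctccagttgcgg
The windows of Fkbp5, Tsc22d3 (3 starts), Dusp1, Pdk4, Ddit4 and the other 4 starts of Sgk1 did not hold these letters. A match is a description of letters and not of a bound site, and the windows are short.

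The ntCZC libraries were small, with 50 to 621 barcodes and 161541 to 2600526 UMIs, and the tissue libraries held 1856 to 27857 barcodes and 8571019 to 139793927 UMIs. Of the ntCZC libraries, wt replicate 3 stood apart, with 73.5% haemoglobin UMIs and 11 of 77 barcodes passing the cell filter, so that wt rested mainly on replicate 1. Haemoglobin took 25.2% to 32.4% of UMIs in ntCZC null replicates 1, 3 and 4, and at most 6.16% in the other 6. Tissue wt replicate 5 held 283 cells and 52.3% mitochondrial UMIs, against 20.7% to 41.9% in the other tissue libraries. In ntCZC mitochondrial UMIs were 2.04% to 6.38%. CPM over all barcodes are shares of all UMIs, so those of tissue and ntCZC rest on totals of unlike make-up. Tissue null replicate 3, labelled female with uterus, had 1347 CPM of Xist beside 16.3 CPM of the Y-linked Ddx3y and 1368 epididymal epithelial-like cells. Nalcn had 0 UMIs in every ntCZC library and in the PBMC library, and 0 to 18 UMIs in the tissue libraries, where the 2 null libraries had 6 and 18. The gene therefore did not check the genotype labels. Cell barcodes were shared by 93 of 231 library pairs, at most 2.78% of the smaller library, and the lowest chi-square among 25 replicate pairs was 4.11 per degree of freedom. The labels name no mice, so n counts libraries, and p-values measure the spread between libraries, part of which may be technical.

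Cells were gated by at least 2 markers of a class, after barcodes with under 200 genes or over 25% mitochondrial UMIs and the doublets of the tissue libraries had been removed (none was removed from ntCZC), which left 2109 ntCZC and 60905 tissue cells. Nonclassical monocyte-like cells, which patrol vessel walls, were 46.9% of ntCZC but 1.77% of tissue cells, and B cell-like cells were 12.8% and 11.4%. The plot of all genes by library shows each gene's spread before any gate. In sums over all cells, fewer cells of a type and less RNA per cell cannot be told apart.

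**Figure D1:**
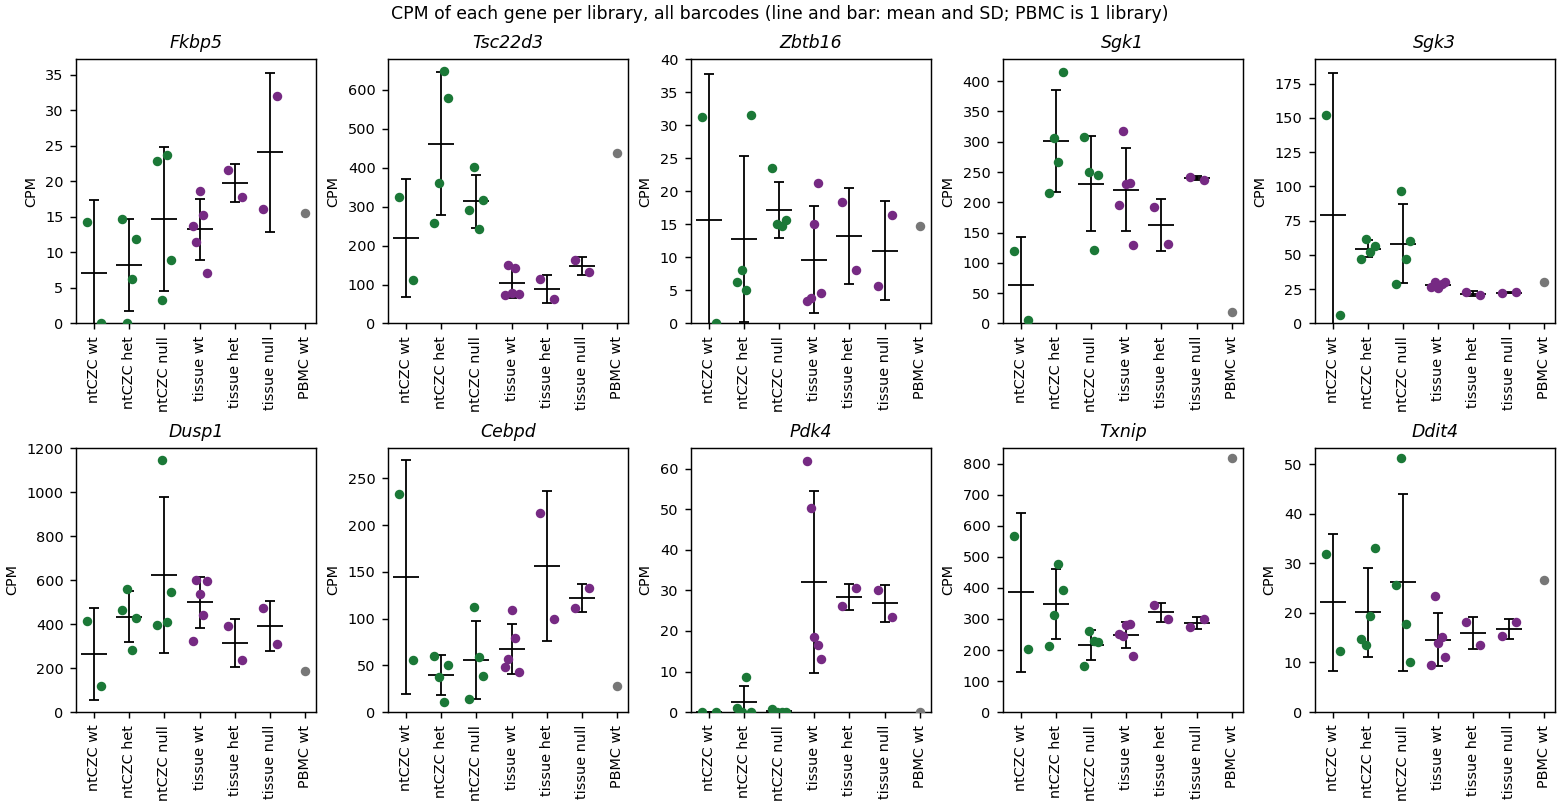
CPM of the 10 genes per library over all barcodes, with libraries grouped as ntCZC wt, het and null, tissue wt, het and null, and PBMC. Pdk4 is the gene whose ntCZC libraries (0 to 8.55 CPM) all sit under the tissue libraries (13.2 to 62.0 CPM), and Tsc22d3 reaches 649 CPM in ntCZC against 164 CPM in tissue.

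Over all barcodes, sorted blood cells had more Tsc22d3 and Sgk3 and far less Pdk4 than pooled organs. Tsc22d3 encodes GILZ, a leucine zipper protein that restrains NF-kB and is a standard marker of receptor activity in immune cells. It ran from 111 CPM through a median of 322 to 649 CPM in the 10 ntCZC libraries and from 62.3 through 113 to 164 CPM in the 9 tissue libraries. Only ntCZC wt replicate 3, the library of mostly haemoglobin, lay within the range of these 9, while a tissue library left without a group had 263 CPM, above ntCZC null replicate 3 (242 CPM) and het replicate 1 (258 CPM) as well. The log2 difference was 1.64 (SE 0.21, edgeR quasi-likelihood test, adjusted p = 6.96e-07), from means of 354 ± 159 (SD, n = 10) and 110 ± 38.3 CPM (SD, n = 9).

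Sgk3 encodes a kinase of the SGK family that acts on endosomes. It had a lowest value of 6.19, a median of 54.7 and a highest of 152 CPM in ntCZC, and 20.5, 26.2 and 30.4 CPM in tissue. Of the 10 ntCZC libraries, 8 lay above every tissue library, and null replicate 1 (28.5 CPM) and wt replicate 3 (6.19 CPM, 1 UMI) did not. The difference was 1.18 on the log2 scale (SE 0.21, adjusted p = 6.05e-05 by edgeR). In tissue this kinase was highest in the monocyte-like classes, as set out below by class.

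Pdk4 encodes the kinase that switches off pyruvate dehydrogenase and spares glucose in fasting. All ntCZC libraries together held 17 UMIs of it against 17606 in tissue. In ntCZC, 7 of 10 libraries had 0 UMIs, and the highest, het replicate 3, had 8.55 CPM, below the lowest tissue library at 13.2 CPM (median 26.1, highest 62.0). The groups did not overlap, with a log2 difference of -4.59 (SE 0.63, adjusted p = 2.13e-06 by edgeR). Of the 15 UMIs in het replicate 3, 12 came from 1 alveolar macrophage-like cell, and without this library, which leaves 2 UMIs in ntCZC, the fitted difference was -7.55. Pck1, a gene of proximal tubule and liver and itself a glucocorticoid target, ran from 140 to 671 CPM in tissue and from 0 to 1.71 CPM in ntCZC, and the part of tubule or liver RNA in the Pdk4 result was not tested.

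Ddit4, which encodes REDD1, a stress-induced brake on mTORC1, was 0.60 higher in ntCZC on the log2 scale (SE 0.23, adjusted p = 0.0272 by edgeR), with 22.9 ± 12.7 (SD, n = 10) against 15.4 ± 4.17 CPM (SD, n = 9). The ranges, 10.0 to 51.2 and 9.45 to 23.4 CPM, overlapped. The call was lost in 7 of 19 fits that left out a library, with RLE scaling (0.38, adjusted p = 0.145) and without the 3 libraries that stood apart (0.61, adjusted p = 0.0603). The other 6 genes did not pass by edgeR, while DESeq2 called 2 of them lower, Fkbp5 and Cebpd. Fkbp5, the Hsp90 co-chaperone that lowers the receptor's affinity for hormone, had a log2 difference of -0.74 (adjusted p = 0.0706), Cebpd, a transcription factor of the acute-phase response, -0.72 (0.102), and Zbtb16, a zinc finger regulator of innate-like lymphocytes, 0.62 (0.179). For Sgk1, Dusp1 and Txnip the log2 differences were 0.03, 0.05 and 0.13.

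In all, 3 of the 10 genes were called higher and 1 lower, while 64.5% of the 10681 genes tested were called in this comparison. Of the 10 ntCZC libraries 2 were wt, and of the 9 tissue libraries 5 were. The fit had no term for genotype, so blood against organ was partly mixed with it. The median log2 difference of the 10 was 0.09 and that of all genes tested -0.08. With RLE scaling the median of all genes moved to -0.30, the share of calls that were higher went from 44.1% to 31.7%, and Fkbp5 and Cebpd were also called lower while Ddit4 was not called. Without the 3 libraries that stood apart, an alternative added after the data had been seen, Tsc22d3 (1.54, adjusted p = 3.3e-05), Sgk3 (1.27, adjusted p = 6.1e-05) and Pdk4 (-5.02, adjusted p = 1.8e-05) were called.

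**Figure D2:**
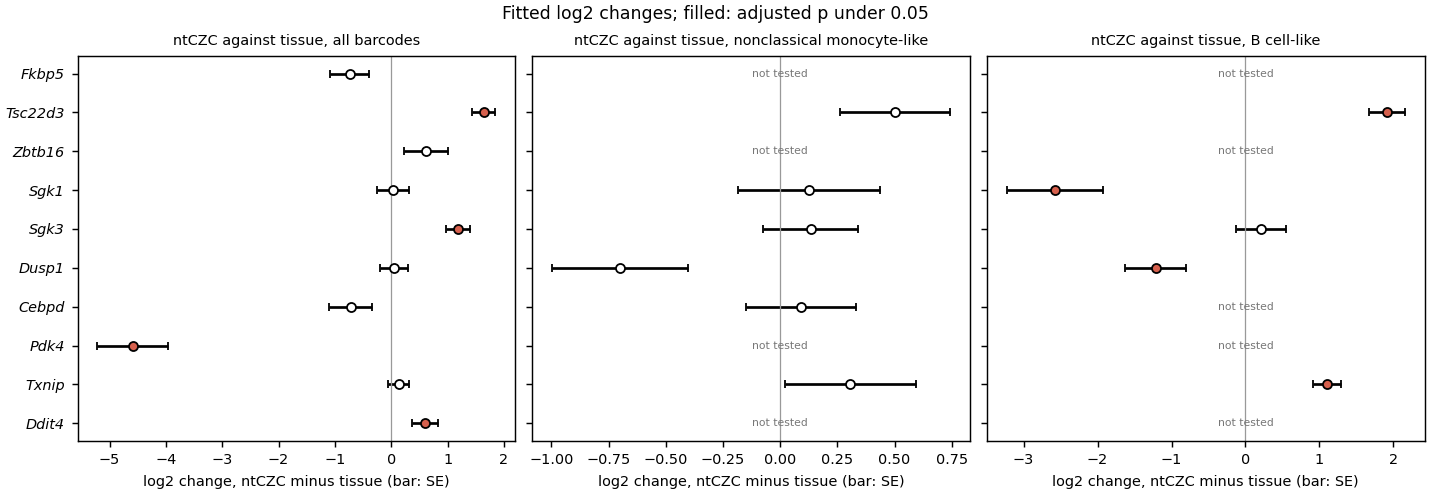
Fitted log2 difference of each gene, ntCZC minus tissue, with its standard error, for all barcodes, nonclassical monocyte-like cells and B cell-like cells. Tsc22d3 lies at 1.64, 0.50 and 1.91 in the 3 comparisons, and Sgk1 at 0.03, 0.13 and -2.58. Genes that were too low to be tested have no point.

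Within classes, blood and organs were compared in B cell-like and nonclassical monocyte-like cells, and listed genes were called in the former. In 6 ntCZC and 9 tissue libraries with at least 20 such cells, Tsc22d3 and Txnip were higher and Sgk1 and Dusp1 lower in ntCZC. None of these 6 ntCZC libraries was wt, while 5 of the 9 tissue libraries were, and the fit had no term for genotype. Blood against organ was therefore partly mixed with Nalcn genotype here, as it was over all barcodes. Tsc22d3 was 588, 1246, 1011 and 1554 CPM in ntCZC het replicates 1 to 4 and 1383 and 1038 CPM in null replicates 2 and 4. In tissue it ran from 155 CPM through a median of 315 to 557 CPM. Every ntCZC library was above every tissue library, and the means were 1136 ± 339 (SD, n = 6) and 301 ± 125 CPM (SD, n = 9). The log2 difference was 1.91 (SE 0.24, adjusted p = 1.75e-05 by edgeR).

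Txnip encodes the thioredoxin-interacting protein, which limits glucose uptake. It was 266, 658, 684 and 575 CPM in ntCZC het replicates 1 to 4 and 711 and 566 CPM in null replicates 2 and 4, against 209 to 334 CPM (median 252) in tissue. Het replicate 1 alone lay within the tissue range. The log2 difference was 1.11 (SE 0.19, adjusted p = 0.000277 by edgeR).

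Sgk1 encodes the serum- and glucocorticoid-regulated kinase that promotes sodium transport and survival. In B cell-like cells it was 4.29, 34.6, 1.93 and 15.5 CPM in ntCZC het replicates 1 to 4 and 52.7 and 21.0 CPM in null replicates 2 and 4, which is 14 UMIs in all. Tissue ran from 32.4 through 63.2 to 135 CPM, so 2 ntCZC libraries lay within its range. The log2 difference was -2.58 (SE 0.65, adjusted p = 0.00478 by edgeR), the opposite direction from Tsc22d3 in the same cells. It was -1.83 (adjusted p = 0.036 by edgeR) without ntCZC het replicate 3. The part of RNA from other cells in this Sgk1 result was not tested.

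Dusp1 encodes a phosphatase that switches off MAP kinases. In B cell-like cells its mean was 117 ± 71.7 CPM for the 6 ntCZC libraries and 227 ± 92.7 CPM for the 9 of tissue (SD), with overlapping ranges of 21.3 to 190 and 126 to 358 CPM. The log2 difference of -1.22 (adjusted p = 0.0269 by edgeR) did not pass without ntCZC het replicate 1 (-0.99), het replicate 3 (-0.92) or the libraries that stood apart (-1.02). Sgk3 did not pass at 0.21 (adjusted p = 0.661).

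So 2 of the 5 genes tested in B cell-like cells were higher and 2 lower, where 37.2% of 5436 genes tested were called. The median log2 difference was 0.21 over the 5 and -0.06 over all tested. With the library number as a replicate block, Tsc22d3 alone of these 5 stayed called, and fewer genes in all were called. The other 5 listed genes were too low for the filter. Pdk4 and Zbtb16 had 0 UMIs in ntCZC against 185 and 46 in tissue. Their pooled tissue levels were 6.58 and 1.64 times a limit of 3 counts over the 6 ntCZC libraries. These ratios leave out counting error in tissue and the spread between libraries, so they are not lower bounds. Cebpd had 1 UMI against 247. Fkbp5 had medians of 3.38 CPM in ntCZC and 14.1 CPM in tissue, and Ddit4 16.2 and 13.3 CPM. Pck1, which B cells are not known for, had 32.4 to 373 CPM in tissue B cell-like cells and 0 to 2.90 CPM in ntCZC. Cebpd was 18.9 CPM in B cell-like cells of tissue, 27.6 CPM in proximal tubule-like, 508 CPM in endothelial-like and 741 CPM in fibroblast-like cells. The part of RNA from other cells in the Pdk4, Cebpd and Dusp1 results was not tested.

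Nonclassical monocyte-like cells were compared between 7 ntCZC and 8 tissue libraries, again without a term for genotype. None of 6 genes tested was called by edgeR or by DESeq2, where 33.5% of 3768 genes were called by edgeR, and 2 genes had an unadjusted p under 0.05. Without the filter on low counts 4 listed genes were called, Ddit4 and Tsc22d3 higher and Dusp1 and Pdk4 lower. Tsc22d3 was 171 to 700.3 CPM (median 417) in ntCZC and 147 to 328 CPM (median 264) in tissue, with a log2 difference of 0.50 (SE 0.24, adjusted p = 0.115 by edgeR). Dusp1 was 250.3 to 1305 CPM (median 585) and 605 to 1361 CPM (median 857), at -0.70 (SE 0.30, adjusted p = 0.074). Leaving out ntCZC het replicate 1 brought Tsc22d3 past the threshold, and leaving out ntCZC null replicate 2 or 4 brought Dusp1 past it.

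The other genes tested in these monocytes lay close to 0. Sgk1 had 435 ± 157 (SD, n = 7) and 345 ± 198 CPM (SD, n = 8), at 0.13 on the log2 scale (adjusted p = 0.791 by edgeR), and Sgk3, Cebpd and Txnip were at 0.13, 0.09 and 0.31. The median of the 6 was 0.13 and that of all genes tested 0.02. Pdk4 had 0 UMIs in ntCZC against 46 in tissue, at least 21.8-fold lower, beside Pck1 at 24.5 to 189 CPM in tissue and 0 in ntCZC. Ddit4, too low for the filter, was 61.5 ± 45.9 (SD, n = 7) and 23.7 ± 21.5 CPM (SD, n = 8), Fkbp5 had medians of 9.07 and 15.1 CPM, and Zbtb16 34.3 and 28.0 CPM.

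Whether the blood-to-organ difference was unlike in the 2 classes was tested after these results had been seen, as the B cell-like minus monocyte-like difference in log2(CPM + 10) within each of 5 ntCZC and 8 tissue libraries. For Tsc22d3 it was 1.52 ± 0.32 (SD) over the ntCZC libraries and 0.29 ± 0.49 (SD) over those of tissue, a gap of 1.24 (exact two-sided permutation test over libraries, p = 0.00155, adjusted over the 10 genes 0.00777). For Sgk1 it was -4.01 and -2.15, a gap of -1.86 (exact permutation, adjusted p = 0.00777). Cebpd had a gap of -1.88 (exact permutation, adjusted p = 0.0104), and the remaining 7 genes, Txnip among them (0.56, adjusted p = 0.174), did not pass. Tsc22d3 thus exceeded its monocyte-like level in B cell-like cells by more in the blood libraries, and Sgk1 fell short of its monocyte-like level by more there. The ntCZC libraries of this test held no wt, and the part of RNA from other cells in these gaps was not tested.

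**Figure D3:**
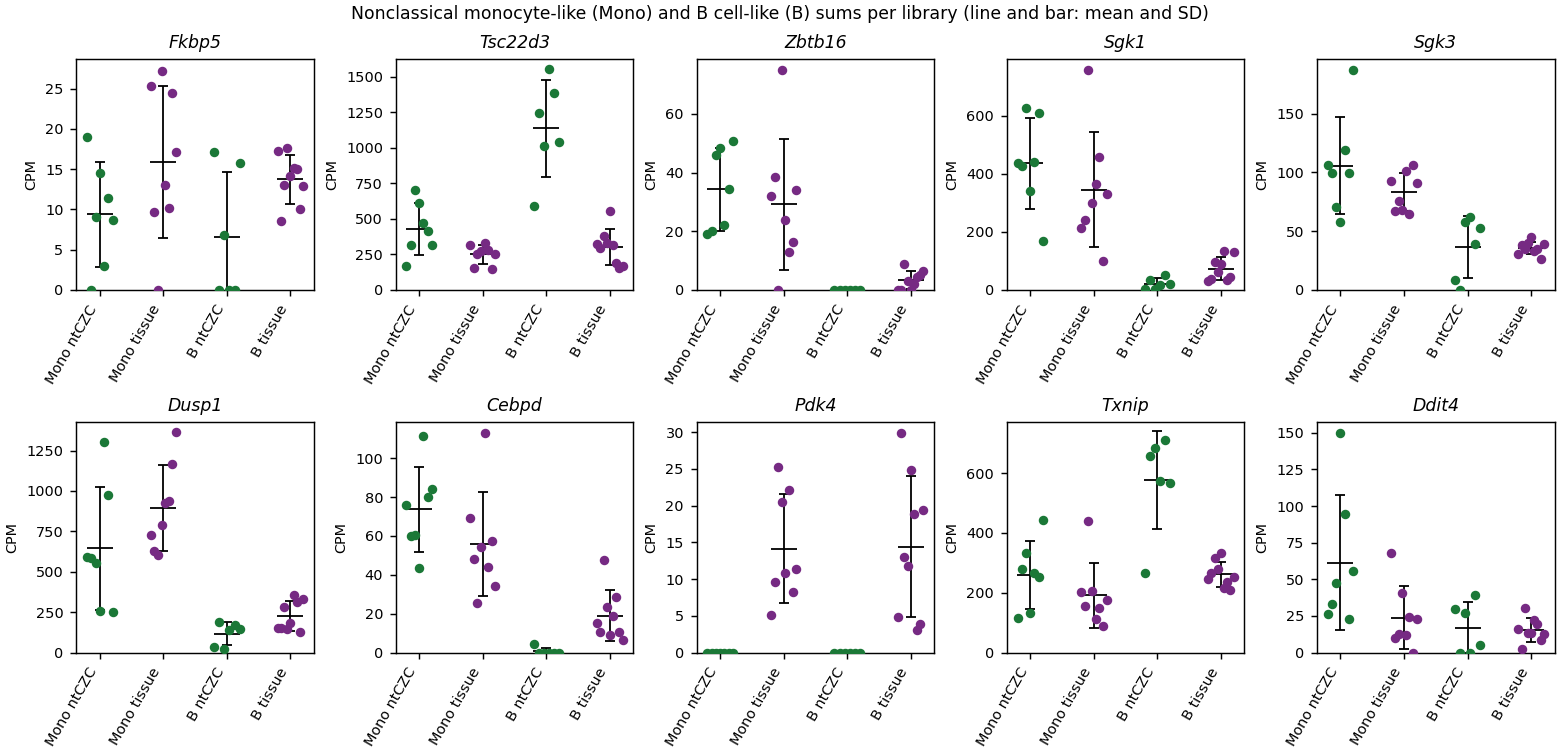
CPM of the genes in nonclassical monocyte-like and B cell-like cells, 1 point per library with at least 20 such cells, for ntCZC and tissue. The 6 ntCZC B cell-like points of Tsc22d3 (588 to 1554 CPM) lie above the 9 tissue points (155 to 557 CPM).

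The PBMC library, from a young mouse and not sorted for ZsGreen, gave 1 value per class with counting error only. Its B cell-like cells had 869 CPM of Tsc22d3 (exact 95% Poisson interval 778 to 969), 930 CPM of Txnip (836 to 1033) and 13.3 CPM of Sgk1 (4.30 to 30.9). The Tsc22d3 and Sgk1 values lay within the ntCZC ranges and outside those of tissue, and Txnip lay above both. Over all its barcodes Pdk4 had 0 UMIs, which allows up to 2.11 CPM at 3 counts. Age, sort and tag cannot be told apart between this library and the others.

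Among the cell classes of the organs the 10 genes had no common order, as the heat map of class means shows. Over the 17 classes with at least 5 libraries, the highest pair correlation of class means was 0.61 (Zbtb16 and Cebpd) and the lowest -0.52 (Sgk3 and Ddit4), given as a description over classes that share libraries. For each gene the class with the highest mean was compared with the next within libraries by an exact sign-flip test of log2(CPM + 10), adjusted over the 10 genes. As the class was picked by the same values, the test describes a gap in the order only. The highest and lowest classes given are those among these 17.

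**Figure D4:**
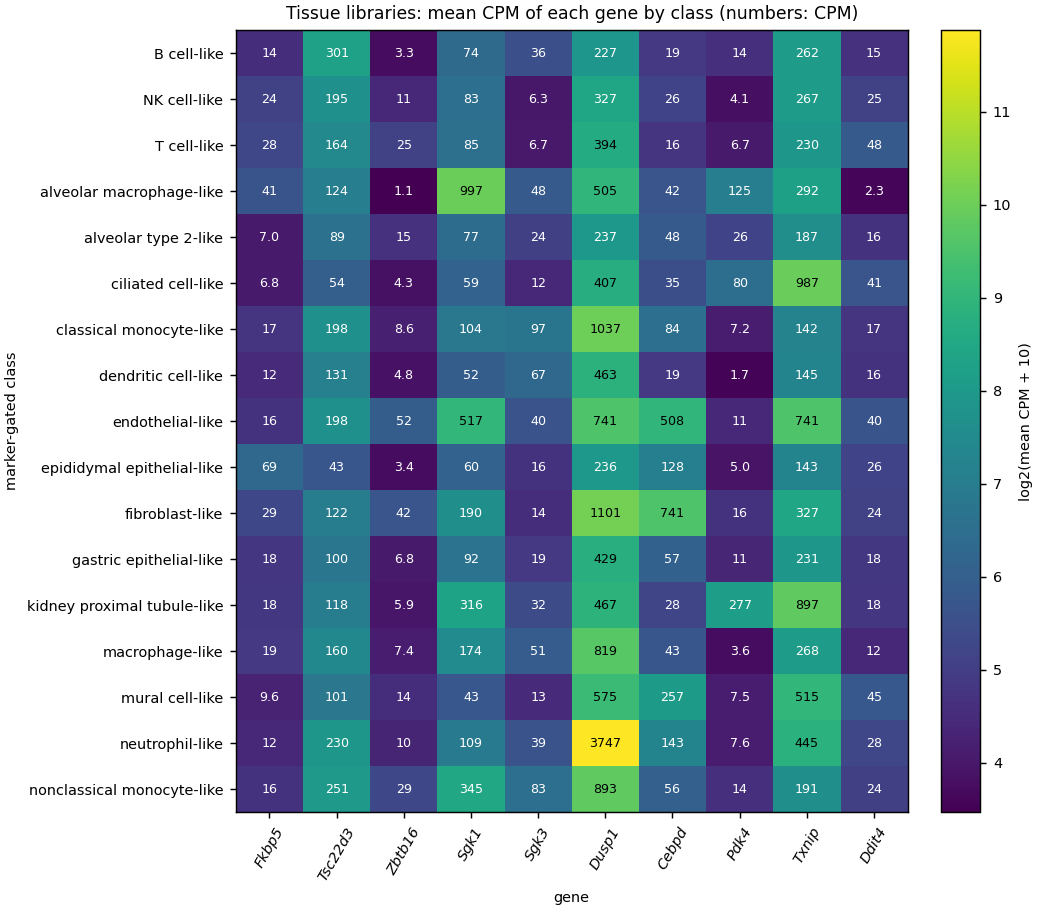
Mean CPM of the 10 genes in the 17 cell classes of the tissue libraries on a log colour scale, to be read within a gene, since counts per gene are not set per length. Sgk1 peaks in alveolar macrophage-like cells (997 CPM), Dusp1 in neutrophil-like cells (3747 CPM) and Pdk4 in proximal tubule-like cells (277 CPM).

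Sgk1 had its highest level in alveolar macrophage-like cells, the resident phagocytes of the air spaces, at 758, 860.3, 1236 and 1380 CPM in wt replicates 1 to 4, 812 and 756 CPM in het replicates 1 and 2, and 1116 and 1054 CPM in null replicates 2 and 3. Each of the 8 libraries was above its own endothelial-like value, the next class at 517 ± 115 CPM (SD, n = 9). The mean log2 difference was 0.97 (exact two-sided sign-flip test, p = 0.00781, the smallest 8 libraries allow, adjusted p = 0.0391 over the 10 genes and 0.3125 over all neighbouring pairs of classes). Nonclassical monocyte-like (345 CPM) and proximal tubule-like cells (316 CPM) came next, and mural cell-like cells were lowest at 43.3 CPM. In the distal tubule and collecting duct-like class, where Sgk1 is known as a mediator of aldosterone and Hsd11b2 shields the mineralocorticoid receptor from glucocorticoid, the pooled level was 131 CPM (exact 95% Poisson interval 100.1 to 167), with 950 CPM of Hsd11b2.

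Dusp1 was highest in neutrophil-like cells, at 3747 ± 1272 CPM (SD, n = 8; 2074 to 5353), above fibroblast-like cells (1101 ± 184 CPM, n = 8) in 8 of 8 libraries. The mean log2 difference was 1.70 (exact sign-flip test, adjusted p = 0.0391 over the 10 genes and 0.3125 over all neighbouring pairs). The 1 ntCZC library with 20 neutrophil-like cells, wt replicate 1, had 2521 CPM and the PBMC library 3822 CPM, both within the tissue range. B cell-like cells were lowest of the 17 classes, at 227 CPM. With a library left out, 7 libraries allow no p below 0.0156, and the calls for Sgk1 and Dusp1 were both lost in 8 of 9 such tests, and also where a class required 3 markers.

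Sgk3 was highest in classical monocyte-like (96.6 ± 19.1 CPM) and nonclassical monocyte-like cells (83.4 ± 16.4 CPM), which did not differ beyond their spread (adjusted p = 0.268, exact sign-flip test, n = 8). It was lowest in NK cell-like (6.28 CPM) and T cell-like cells (6.70 CPM). Its order thus differed from that of Sgk1, which alveolar macrophage-like cells led by a wide margin and where classical monocyte-like cells had 104 CPM.

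The class of Tsc22d3 with the highest mean was 2.30 times its median class. B cell-like (301 ± 125 CPM, n = 9), nonclassical monocyte-like (250.8 ± 67.1 CPM, n = 8) and neutrophil-like cells (230 ± 82.1 CPM, n = 8) led, and no neighbouring pair among its 17 classes differed at an unadjusted p under 0.05. Epididymal epithelial-like cells were lowest at 42.6 CPM. Mesothelial-like cells, kept out of the order for want of libraries, had 314 CPM pooled (exact 95% Poisson interval 266 to 368).

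Fkbp5 was low in every class. Its highest level, 68.5 ± 28.5 CPM (SD, n = 7), was in epididymal epithelial-like cells, at 75.1, 102 and 28.8 CPM in wt replicates 1, 2 and 3, 77.8 and 101 CPM in het replicates 1 and 2, and 39.4 and 55.8 CPM in null replicates 2 and 3. The last of these is the library labelled female. Alveolar macrophage-like cells followed at 40.6 ± 13.4 CPM (n = 8), and the pair was not distinguished (adjusted p = 0.221, exact sign-flip test, n = 7). Ciliated cell-like cells were lowest at 6.80 CPM.

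Cebpd and Zbtb16 both led in stromal and vascular classes. Cebpd was 741 ± 280 CPM (n = 8) in fibroblast-like and 508 ± 243 CPM (n = 9) in endothelial-like cells, and 16.4 CPM in T cell-like cells, the lowest class. Kidney intercalated-like cells, in 2 libraries, had 629 CPM pooled (exact 95% Poisson interval 559 to 707). Zbtb16 was 52.4 ± 44.4 CPM (n = 9) in endothelial-like and 41.7 ± 29.3 CPM (n = 8) in fibroblast-like cells. Its endothelial-like values were spread widely, at 6.88, 10.5, 66.2, 134 and 9.40 CPM in wt replicates 1 to 5, 91.9 and 35.5 CPM in het replicates 1 and 2, and 32.8 and 84.1 CPM in null replicates 2 and 3, so that the spread within wt covered every other library.

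Pdk4 was the gene most confined to few classes, with its highest class 25.5 times the median class. Proximal tubule-like cells had 277 ± 178 CPM (SD, n = 8; 53.4 to 520.1) and alveolar macrophage-like cells 125 ± 23.3 CPM (n = 8), and the first was higher in 6 of 8 libraries (adjusted p = 0.221, exact sign-flip test). The proximal tubule-like class had 1 of its own markers among its 10 leading genes, and the other 16 ordered classes had 4 to 6. Ciliated cell-like cells (80.2 ± 35.2 CPM) followed, and dendritic cell-like cells were lowest at 1.70 CPM. The 14.4 and 14.1 CPM in B cell-like and nonclassical monocyte-like cells of tissue lay between these ends.

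Txnip was highest in ciliated cell-like (987 ± 323 CPM), proximal tubule-like (897 ± 348 CPM) and endothelial-like cells (741 ± 137 CPM), and the first pair did not differ beyond its spread (adjusted p = 0.582, exact sign-flip test, n = 8). Classical monocyte-like cells were lowest at 142 CPM. Over the 17 classes Ddit4 ran from 47.7 ± 23.8 CPM in T cell-like cells to 2.31 ± 1.65 CPM in alveolar macrophage-like cells. The rare mast cell and basophil-like cells, outside the order, stood at 385 CPM of Ddit4 pooled (exact 95% Poisson interval 292 to 499).

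**Figure D5:**
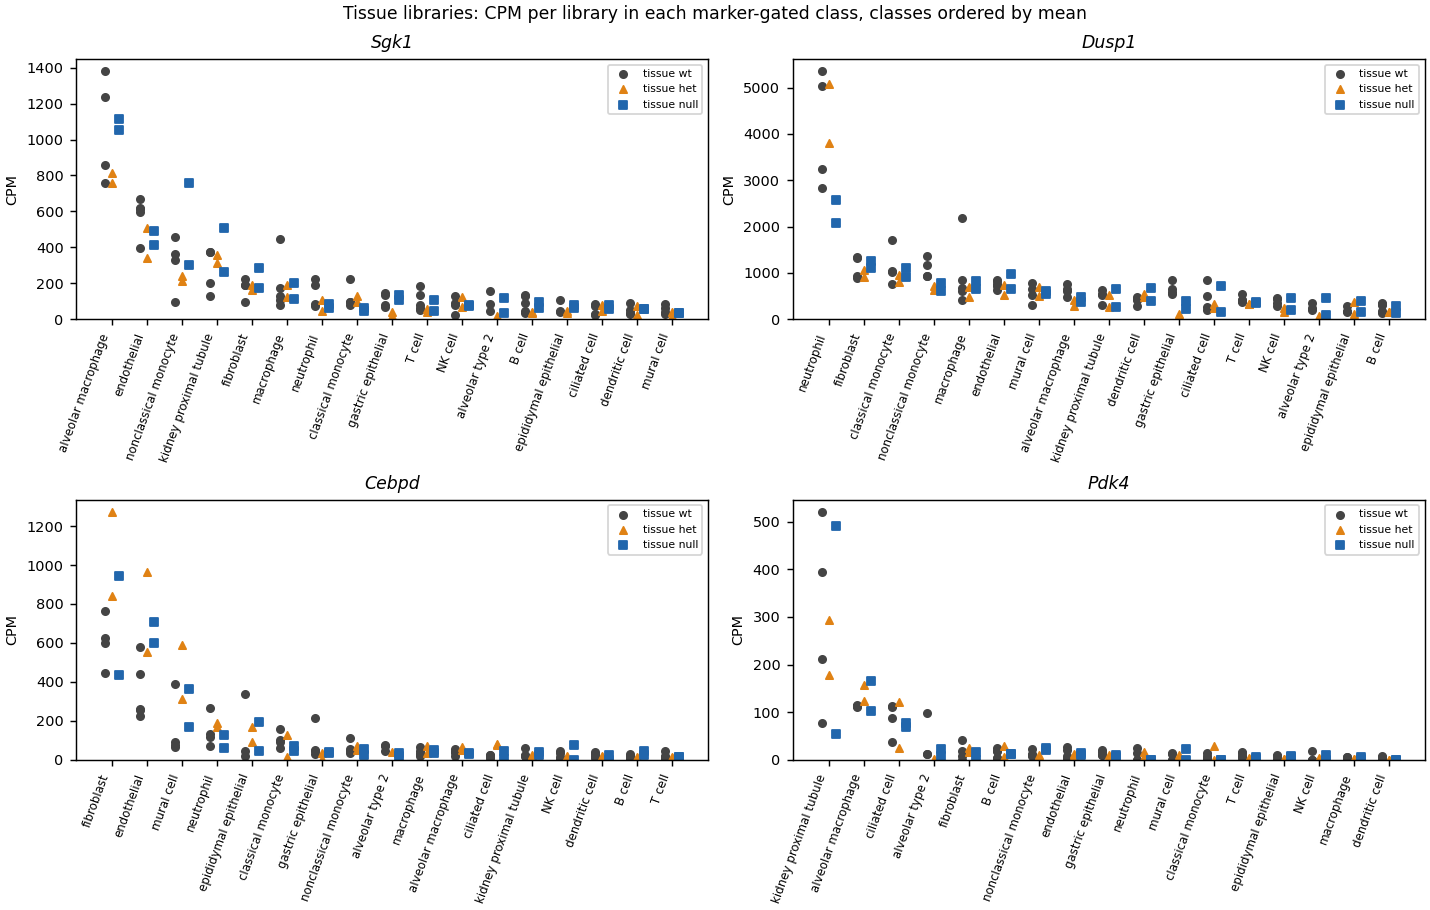
CPM per tissue library by cell class, with classes in the order of their mean. All 8 libraries with both classes are higher in alveolar macrophage-like than in endothelial-like cells for Sgk1. The same holds for neutrophil-like over fibroblast-like cells for Dusp1. For the other genes the 2 leading classes change order between libraries.

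As a share of all UMIs, mitochondrial ones included, the RNA of the receptor itself was at similar means in blood and organs, 95.4 ± 33.7 (SD, n = 10) and 92.1 ± 7.45 CPM (SD, n = 9). Nr3c1 ran from 43.3 to 147 CPM in ntCZC and from 82.7 to 106 CPM in tissue over all barcodes, at -0.01 on the log2 scale (SE 0.11, adjusted p = 0.951 by edgeR), -0.01 in nonclassical monocyte-like and -0.14 in B cell-like cells (adjusted p = 0.972 and 0.623). Within tissue it was highest in T cell-like (248 ± 85.4 CPM, n = 9) and endothelial-like cells (243 ± 31.6 CPM, n = 9). By library mean it was lowest of the 17 classes in epididymal epithelial-like cells, where Fkbp5 was highest. Over pooled cells that class had 35.9 CPM (exact 95% Poisson interval 32.7 to 39.3) and alveolar type 2-like cells 34.0 CPM (27.3 to 41.8), which were not separated. These are levels of RNA and say nothing of the hormone.

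The genes with the class pattern most like that of a listed gene were taken among 6520 genes by Pearson's r of mean log2(CPM + 10) over the 17 classes. For Tsc22d3 they included Msn (r = 0.87) and Rasa3 (0.86), for Sgk1 they were Klf10 (0.85), Cacul1 (0.83) and Lhfpl2 (0.83), for Zbtb16 Heg1 (0.82), Abi3bp (0.81) and Ctdsp2 (0.78), and for Fkbp5 Dap (0.80), Ube2z (0.75) and Nans (0.75). The classes share libraries, and with so many genes compared high values arise without any link.

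Other genes of the pathway, a list of 22 with the receptors, hormone handling and further targets, gave 5 higher and 8 lower of 20 tested over all barcodes, a share near that of all genes called there (64.5%). The largest called differences were Pck1 (-10.64 on the log2 scale), the gluconeogenic enzyme, Lcn2 (-4.54), an acute-phase siderophore binder, Angptl4 (-4.03), an inhibitor of lipoprotein lipase, and Mt2 (-3.88), a metallothionein. In nonclassical monocyte-like cells 1 of 14 was higher and 4 were lower, again near the share of all genes (33.5%), led by Mt1 (-3.47), the chemokine receptor Cxcr4 (-1.21), Thbd (-1.03) and Rgs2 (0.76), the only one of the 4 that was higher. In B cell-like cells, where 37.2% of all genes were called, 1 of 15 was higher, Nfkbia, and 6 lower, led by Lcn2 (-9.02), Pck1 (-5.80), Mt1 (-2.65) and Errfi1 (-2.60). Pck1 is the tubule and liver gene given above beside Pdk4.

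A list of 10 dissociation-stress genes was set beside these results, since the organs had been digested with enzymes. Over all barcodes 3 were higher and 4 lower in ntCZC, where 64.5% of all genes were called. Fos, the immediate-early factor, was at -0.39 (adjusted p = 0.356 by edgeR) and the heat shock gene Hspa1a at -3.98 (adjusted p = 6.94e-09). The list summed to 743 to 5818 CPM in ntCZC and 2463 to 5712 CPM in tissue. In B cell-like cells (37.2% of all genes called) 2 were higher and 4 lower, with sums of 906 to 4776 and 1493 to 3818 CPM, and in nonclassical monocyte-like cells (33.5%) 2 were higher and 4 lower, with sums of 2127 to 5230 and 3544 to 5539 CPM. The part of digestion in the Dusp1 and Sgk1 values was not tested.

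Nalcn genotype was compared next, within ntCZC and within tissue, to ask whether the response genes differed with the channel. None of the listed genes tested, 7 to 10 per comparison, was called by edgeR in the 11 genotype comparisons. Their median log2 differences in ntCZC were 0.03 for null against wt, -0.46 for het against wt and 0.46 for null against het, and in tissue -0.03 for null and -0.18 for het against wt. Those of all genes tested were 0.12, 0.10, 0.004, -0.02 and -0.03. An unadjusted p under 0.05 by edgeR was met by 3 of 9 listed genes for ntCZC null against wt (3.84% of all genes). It was met by 3 of 9 for het against wt (7.90%) and 2 of 9 for null against het (7.31%). In nonclassical monocyte-like cells 2 of 9 met it (2.80%), and in tissue 1 of 10 for null (9.07%) and 2 of 10 for het (7.65%). In ntCZC both wt libraries were from males. Null replicates 1, 3 and 4 were from females and were those with 25.2% to 32.4% haemoglobin UMIs. Sex was a covariate, but genotype, sex and haemoglobin share cannot be fully told apart there. In ntCZC the share of all genes called was 0% of 9379 for null against wt (360 genes with an unadjusted p under 0.05, DESeq2 14 calls), 0.107% for het against wt and 0% for null against het (686 unadjusted, DESeq2 23 calls), and 0% of 7436 in nonclassical monocyte-like cells for null against het (208 unadjusted, DESeq2 0 calls). In tissue it was 0.0112% of 17863 for null against wt and 0% for het against wt (1367 unadjusted, DESeq2 73 calls).

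Dusp1 was 413 and 118 CPM in ntCZC wt replicates 1 and 3, 465, 560.1, 282 and 428 CPM in het replicates 1 to 4, and 396, 1148, 408 and 545 CPM in null replicates 1 to 4. Null replicate 2 stood highest and the groups overlapped. The log2 difference was 1.53 for null against wt (adjusted p = 0.983 by edgeR). DESeq2 called it for null against wt and for null against het, and edgeR did not.

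Sgk1 was 120 and 6.19 CPM in the wt libraries, the second of them the library of mostly haemoglobin with 1 UMI, and 215 to 415 CPM in het and 121 to 308 CPM in null. Wt did not overlap with het or null, but the gap to null lay within counting error. The Poisson interval of wt replicate 1 was 105 to 137 CPM. Null replicate 3, the lowest null library, had 121 CPM (41 UMIs, interval 86.9 to 164 CPM). The share of all genes that separate in this way was not counted. The log2 differences of 1.88 for het and 1.76 for null against wt did not pass (adjusted p = 0.403 and 0.983 by edgeR). Cebpd was 233 and 55.7 CPM in wt and 10.3 to 59.9 CPM in het (-2.06, adjusted p = 0.244 by edgeR). DESeq2 called both genes for het against wt. With 2 wt libraries, 1 of them the library of mostly haemoglobin, the contrast rests on replicate 1. Among the other pathway genes Klf9 was higher (2.99, adjusted p = 0.0454) and Lcn2 lower (-7.82, adjusted p = 0.0377) in het than in wt by edgeR, where 0.107% of all genes were called. Lcn2 was 145 CPM in wt replicate 1 and 6.19 CPM in wt replicate 3. Wt replicate 1 was the only ntCZC library with at least 20 neutrophil-like cells. The part of the mix of cells in these contrasts was not tested.

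In tissue Sgk3 was 26.6, 30.4, 26.2, 28.5 and 30.1 CPM in wt replicates 1 to 5, 23.3 and 20.5 CPM in het replicates 1 and 2 and 22.2 and 22.9 CPM in null replicates 2 and 3. All 4 libraries with a deleted allele were below all 5 wt libraries, by little, and neither contrast passed (-0.58 for null, adjusted p = 0.451; -0.43 for het, adjusted p = 0.648; edgeR). Txnip was 299 and 344 CPM in het against 181 to 283 CPM in wt, also without overlap (0.27, adjusted p = 0.747 by edgeR). The share of all genes that separate in such a way was not counted, and these genes were picked after their values were seen. The het libraries were both from males of 551 days, so age and genotype cannot be told apart there.

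Within tissue classes, het and null libraries together were set against wt. In endothelial-like cells Cebpd was 261, 223, 438, 578 and 254 CPM in wt replicates 1 to 5, 962 and 554 CPM in het replicates 1 and 2, and 601 and 706 CPM in null replicates 2 and 3. The log2 difference was 1.09 (adjusted p = 0.661 by edgeR over 12431 genes), and wt replicate 4 overlapped with het replicate 2. In T cell-like cells Dusp1 was 324 to 369 CPM with a deleted allele and 381 to 552 CPM in wt (-0.23, adjusted p = 0.898 by edgeR). The share of all genes called was 0% in endothelial-like, macrophage-like, fibroblast-like, T cell-like and B cell-like cells alike by edgeR, where 867, 304, 291, 463 and 492 genes had an unadjusted p under 0.05 and DESeq2 made 33, 11, 2, 12 and 4 calls.

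Sex was compared in tissue between 3 female and 6 male libraries, and no listed gene tested was called by edgeR or DESeq2 in endothelial-like cells (0.0483% of 12431 genes called by edgeR; 1 of the 10 with an unadjusted p under 0.05) or macrophage-like cells (0.0242% of 8254 genes; 0 of the 9 tested). Tsc22d3 in macrophage-like cells was 215 ± 29.8 (SD, n = 3) in females and 132 ± 39.6 CPM (SD, n = 6) in males, with touching ranges of 182 to 240 and 92.1 to 183 CPM (0.54, adjusted p = 0.667 by edgeR). The 3 female libraries include tissue null replicate 3 and tissue wt replicate 5 (283 cells, 52.3% mitochondrial UMIs). As the pools held epididymis or uterus, sex and the mix of organs cannot be told apart.

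To see whether a gene's level moved together in separate cell types of a library, endothelial-like and macrophage-like levels were correlated over the 9 tissue libraries. Tsc22d3 had r = 0.77 (permutation p = 0.0205, adjusted 0.156) and rho = 0.68 (permutation p = 0.0503), and r = 0.77 without the 2 libraries farthest from the median. Fkbp5 had r = 0.72 (permutation p = 0.0311, adjusted 0.156) and rho = 0.78 (permutation p = 0.0172), falling to r = 0.49 without them. Dusp1 had the highest rho (0.82, permutation p = 0.0108, adjusted 0.0861) with r = 0.46, and Pdk4 had r = 0.67 (permutation p = 0.0486, adjusted 0.162). None of the 10 genes passed the adjustment. Without the 2 libraries r rose to 0.81 for Zbtb16 and 0.80 for Txnip and was 0.15 for Pdk4. Both classes share a library's digestion and free RNA.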

How the data were processed

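Droplet single-cell RNA libraries (10x 3' chemistry) of 22 mouse samples were used, 20 with a group. The authors aligned reads to mm10 with Cell Ranger (2.1.1 in the submitters' processing notes, 3.0.2 in the matrix headers) and deposited filtered matrices of raw UMI counts by gene and barcode, before any normalization or removal of doublets. Organs were not separated, since the hashtag reads were not analysed here. Groups came from the labels, and 2 tissue libraries whose title and strain entry name different genotypes entered no comparison. The genes and lists were chosen with earlier results of these data known.

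Barcodes needed 200 genes and at most 25% mitochondrial UMIs, and 15088 doublets (16.2% of passing tissue barcodes) were removed by Scrublet score (scanpy 1.11.5). Cells took the class, of 28 listed, with the most detected markers (at least 2, ties unclassed). Counts were summed per library, over all barcodes or per class with at least 20 cells, and tested with the edgeR 4.0.16 quasi-likelihood test (TMM, filterByExpr, sex as covariate except where sex was compared, Benjamini-Hochberg over all genes at 0.05), which shares spread across groups. DESeq2 1.42.0 was an alternative. On simulated counts of the all-barcode comparison, edgeR recovered 100% of 4-fold changes and 38% and 46% of 2-fold rises and falls. The changes were set in genes above 20 CPM, with the same spread for all genes and the same starting profile for both kinds. These shares therefore do not cover lower genes, the real mix of cells or the genotype comparisons. Levels are CPM of summed counts, with 10 CPM added on the log2 scale in tests within libraries. All 10 listed genes were to be named in every comparison. In the genotype, sex and agreement comparisons, where none passed the main test, most are given only by counts or medians, and the few shown there were chosen after their values were seen. Of other pathway genes up to 4 with the largest called change were named, beside Nr3c1. Poisson intervals (95%) and limits of 3 counts cover counting error only. The share of all genes whose groups do not overlap was not counted, so a lack of overlap only describes a gene's values. The genes' coordinates were read from GENCODE vM21 on GRCm38. One gene with a class pattern like that of a listed gene is not reported here.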

Additional observations from a re-analysis of the deposited data

Results flagged for a closer look

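Of 70 groups of 4 to 10 libraries tested for a library far from the others, 7 held one, where chance gives about 1 in 20. Of the 7, 2 are 1 UMI where every other library had 0, which meets the criterion whatever the depth. Zbtb16 was 31.5 CPM in ntCZC het replicate 4 against 5.13 to 8.08 CPM in the other het libraries, and 71 of its 82 UMIs came from 364 nonclassical monocyte-like cells. Zbtb16 was also 23.5 CPM in ntCZC null replicate 1 against 14.8 to 15.6 CPM in the other null libraries. Pdk4 was 8.55 CPM in ntCZC het replicate 3, with 12 of 15 UMIs in 1 alveolar macrophage-like cell, the only such cell in ntCZC, and 0.713 CPM (1 UMI) in ntCZC null replicate 1, where the other null libraries had 0. In B cell-like cells ntCZC het replicate 1 had 4.29 CPM of Cebpd (1 UMI) against 0 in the other 5 and 266 CPM of Txnip against 566 to 711 CPM. In nonclassical monocyte-like cells tissue null replicate 2 had 441 CPM of Txnip against 89.8 to 204 CPM in the other 7.

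The blood-to-organ difference was unlike in B cell-like and nonclassical monocyte-like cells for 3 genes by the exact permutation test over libraries given above, with a gap on the log2(CPM + 10) scale of 1.24 for Tsc22d3, -1.86 for Sgk1 and -1.88 for Cebpd. The Cebpd gap rests on B cell-like values of 1 UMI in all ntCZC libraries.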

How the results depend on the processing

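Of 513 alternative values, 473 kept their direction and side of the threshold (or a count within 1.5 times), 19 no longer passed, 21 counts moved and 0 reversed. Tsc22d3, Sgk3 and Pdk4 over all barcodes and Tsc22d3 in B cell-like cells were called under every alternative run. Leaving out 1 library gave 3 to 5 listed genes called over all barcodes, 3 to 4 in B cell-like cells, 0 to 1 in nonclassical monocyte-like cells, 0 to 2 for the highest class against the next and 0 to 1 for the agreement between classes, where 1 passed without tissue wt replicate 5. Requiring 3 markers for a class gave 0 genes for the highest class against the next, in place of 2. Without the low-count filter 4 listed genes were called in nonclassical monocyte-like cells (Ddit4 and Tsc22d3 higher, Dusp1 and Pdk4 lower), and 1 each for ntCZC het against wt (Cebpd), ntCZC null against het in nonclassical monocyte-like cells (Dusp1) and tissue het and null against wt in endothelial-like cells (Cebpd). DESeq2 called 2 listed genes for ntCZC het against wt (Cebpd, Sgk1), 1 for null against het and 1 for null against wt (both Dusp1). The cause of these moves was not tested. Calls over all genes without the filter were 3919 against 1264 in nonclassical monocyte-like cells and 10698 against 6891 over all barcodes, and DESeq2 called 106 against 10 for ntCZC het against wt and 342 against 2 for tissue null against wt.

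Same-numbered libraries did not deviate together (correlations of -0.30 to 0.26), so the numbers were not taken as pairs. The ntCZC and tissue libraries of wt replicates 1 and 3, het replicate 2 and null replicate 2 had the same age and sex. As blood and organs hold different cells, the correlations cannot exclude a shared mouse. With the number as a replicate block, 4 listed genes were called over all barcodes (Fkbp5 lower in place of Ddit4), 0 in nonclassical monocyte-like cells, 0 in every genotype comparison and 1 in B cell-like cells, where Tsc22d3 stayed at 1.52 (adjusted p = 0.0124 by edgeR) and Sgk1, Dusp1 and Txnip did not pass. Calls over all genes were then 417 against 2023 in B cell-like cells. The block was not run for sex, which it removes from the model.

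Depth limits the B cell-like comparison. Its sums held 14 UMIs of Sgk1 in ntCZC, and Fkbp5, Zbtb16, Cebpd, Pdk4 and Ddit4 could not be tested there. Ddit4 over all barcodes did not pass with DESeq2, RLE scaling, filtered barcodes, no filter on low counts or the block.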

Other observations

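The pair of tissue libraries without a group gave values at both ends of the tissue range. Unassigned replicate 1 had 263 CPM of Tsc22d3, 505 CPM of Sgk1, 769 CPM of Dusp1, 31.5 CPM of Fkbp5 and 36.0 CPM of Sgk3. The grouped tissue libraries reached 164 CPM of Tsc22d3, 317 CPM of Sgk1, 600.1 CPM of Dusp1, 32.0 CPM of Fkbp5 and 30.4 CPM of Sgk3. Unassigned replicate 3 had 57.8 CPM of Tsc22d3, 107 CPM of Sgk1 and 194 CPM of Dusp1, all under the lowest grouped tissue library.

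Pairs of the genes were compared across the 9 tissue libraries within endothelial-like cells, after the class results had been seen. Fkbp5 and Txnip varied together (r = 0.91, permutation p = 0.00101, adjusted over 45 pairs 0.0456), and rho was 0.92 (permutation p = 0.00131, adjusted 0.059). Leaving out the 2 libraries farthest from the median gave r = 0.98. Of the 45 pairs, 5 had an unadjusted p under 0.05 for r and 1 passed the adjustment. Zbtb16 and Cebpd had r = 0.85 (permutation p = 0.00635, adjusted 0.143).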
